A study of Mus musculus with 6 samples.

Results

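Poly(A) tails of glycolytic enzyme mRNAs were examined in naive CD4 T cells of mice by mTAIL-seq. In this assay a hairpin adaptor is joined to RNA 3' ends, so that sequencing covers the last bases of a transcript and its tail. The set holds 8 genes picked by name for their place in the pathway, with no cutoff on a measured value but with earlier results of these data known: Aldoa (ENSMUSG00000030695), Tpi1 (ENSMUSG00000023456), Gapdh (ENSMUSG00000057666), Pgk1 (ENSMUSG00000062070), Pgam1 (ENSMUSG00000011752), Eno1 (ENSMUSG00000063524), Pkm (ENSMUSG00000032294) and Ldha (ENSMUSG00000063229). These Ensembl IDs were looked up among the gene IDs of all 6 libraries, 6469 of which had a tag with a tail. Of the 8 genes, 5 had a tag in at least 1 library. They held 49 tags in all, a tag being a group of reads from the same fragment end, and 48 of these had a tail of at least 5 nt, the length from which a tag is counted as tailed here. Gapdh, Pgk1 and Pgam1 were linked to no tag in any library. What follows is therefore a description of a small number of tags, and nearly every tail is given.

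The study had 2 groups of 3 libraries. The cells were sorted as TCRβ+ CD4+ CD25-, high in CD62L and low in CD44. The control group, labelled WT, came from littermates homozygous for floxed Btg1 and Btg2 alleles (Btg1f/f Btg2f/f). The double knockout, DKO, had the same floxed alleles together with CD4-Cre, a transgene that acts in T cells from the thymus onwards and so also in T cells other than the ones sorted. The labels list no Cre in the control group, so the Cre transgene and the loss of both genes cannot be told apart. No age is given. The growth protocol names 2 pairs of mice for 3 libraries per genotype, so that some of the spread behind the p-values may come from library preparation and not from animals.

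BTG1 and BTG2 bind the CCR4-NOT deadenylase, which shortens poly(A) tails and thereby destabilises mRNA, and the series asks how they bear on T cell quiescence. Glycolysis turns glucose into pyruvate through a chain of cytosolic enzymes and yields ATP and NADH. Quiescent naive T cells rely mainly on mitochondrial respiration, and activation raises glycolysis and lactate production. In the order of the pathway, aldolase A (Aldoa) splits fructose bisphosphate into triose phosphates, triosephosphate isomerase (Tpi1) interconverts these, glyceraldehyde-3-phosphate dehydrogenase (Gapdh) makes the NADH, phosphoglycerate kinase (Pgk1) makes ATP, phosphoglycerate mutase (Pgam1) and enolase (Eno1) lead to phosphoenolpyruvate, pyruvate kinase M (Pkm) makes ATP and pyruvate, and lactate dehydrogenase A (Ldha) reduces pyruvate to lactate and restores NAD+.

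Depth limited every value. The libraries held 22311 to 97097 mapped tags, of which 3943 to 24024 were tailed and linked to a gene ID. The libraries numbered 3 stood apart in both genotypes. In them 32.3% (WT) and 35.3% (DKO) of mapped tags had no tail of 5 nt or more, against 7.95% to 9.94% in the other 4. Their median tails were 45 nt (WT) and 56 nt (DKO), against 61 to 69 nt in the others. Values for the set, the Ldha tail and the tests over all IDs are therefore also given without them, some of these in the closing sections. The cell type markers fixed for the sort and the deleted genes Btg1 and Btg2 could not be matched to IDs here and are not analysed here, and neither are the other genes of glycolysis, glucose and lactate transport and pyruvate entry. In bulk RNA, fewer cells with a transcript and less of it per cell cannot be told apart.

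Ldha and Aldoa supplied 39 of the 48 tailed tags (81.2%). Ldha had 22 and ranked 441st of 6469 gene IDs by tailed tags, with 92.9% of IDs below it. Aldoa had 17 and ranked 561st, with 90.8% below it. Pkm had 5 tailed tags, Eno1 had 3 and Tpi1 had 1. The median over all gene IDs was 2 tags, and 34.0% of IDs had a single one. Ldha was the only one of the 8 with a tailed tag in every library, which 442 gene IDs (6.83%) had.

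**Figure D1:**
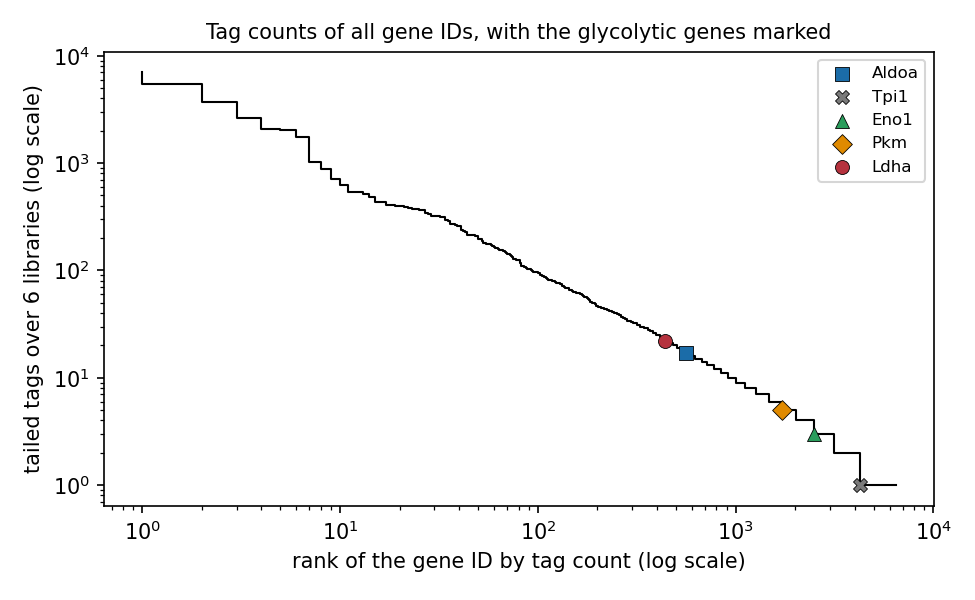
Tailed tags over the 6 libraries (vertical axis, log scale) against the rank of the gene ID by that number (horizontal axis, log scale), as a black line for all 6469 IDs, with the 5 glycolytic genes that had a tag as symbols. Ldha with 22 tags and Aldoa with 17 lie near ranks 441 and 561, and Tpi1 with 1 tag lies among the least counted IDs; tied IDs share a rank, so a symbol sits at the left end of its step.

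For Gapdh, Pgk1 and Pgam1, 0 of 84157 tailed, gene-linked tags over the 6 libraries allow a level of up to 0.356 tags per 10,000, which counts sampling error only. The same pooled level was 2.61 per 10,000 for Ldha and 2.02 for Aldoa. Tags come from the 3' ends of transcripts, so these levels are not per length. PCR copies need not be independent molecules, so a tag need not stand for a separate molecule. The mouse genome carries processed copies of several of these genes, so counts are uncertain where a read could belong to more than 1 place. All 49 tags of the set were linked to 1 gene ID each. How reads with several possible places were treated is not stated in the labels or headers, and its part in the counts of 0 was not tested.

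Together the genes made up 5.31, 7.90 and 8.36 tags per 10,000 tailed, gene-linked tags in WT and 4.35, 5.41 and 5.07 in DKO. DKO replicate 2 lay above WT replicate 1, so the genotypes overlapped. WT averaged 7.19 ± 1.65 and DKO 4.95 ± 0.540 (SD, n = 3 each). The 95% exact (Clopper-Pearson) intervals of single libraries were wider than this gap, from 2.43 to 10.1 per 10,000 in WT replicate 1 to 0.614 to 18.3 in DKO replicate 3. Behind these levels stood 9, 9 and 6 tailed tags for WT and 9, 13 and 2 for DKO, which is 24 for each genotype.

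**Figure D2:**
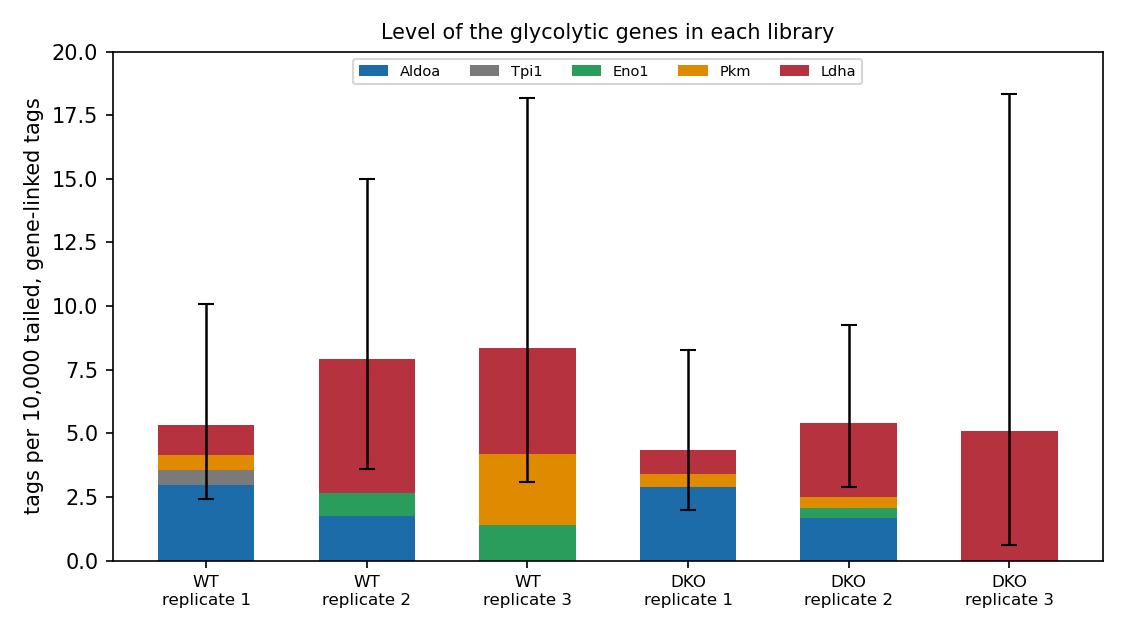
Tags per 10,000 tailed, gene-linked tags (vertical axis) in each library (horizontal axis), stacked by gene, with the 95% exact interval of the sum as a black bar that covers counting error only. The sums run from 4.35 to 8.36 and every interval overlaps every other.

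Aldoa lies on chromosome 7 (chr7:126795234-126800994, RefSeq on GRCm38.p6) and was found in the libraries numbered 1 and 2 of both genotypes. Its level was 2.95 and 1.76 tags per 10,000 in WT and 2.90 and 1.67 in DKO, so the genotypes lay close together at each number. It had 0 tags in both libraries numbered 3, which allows up to 4.18 per 10,000 in WT and 7.61 in DKO, above any level measured for it elsewhere. In WT replicate 1 its 5 tails were 33, 49, 50, 53 and 164 nt long. In WT replicate 2 they were 23 and 85 nt. The 6 tails in DKO replicate 1 were 9, 25, 84, 86, 96 and 144 nt, and the 4 in DKO replicate 2 were 28, 49, 131 and 136 nt. Both genotypes thus held Aldoa mRNAs with tails under 30 nt and with tails well above 100 nt. By library its mean tail was 69.8 nt (replicate 1) and 54.0 nt (replicate 2) for WT, against 74.0 and 86.0 nt for DKO. The DKO means lay above the WT means, by 18.1 nt on average, and 2 against 2 libraries cannot give a p below 0.33, the value found (exact permutation test, two-sided). Of the 17 Aldoa tags, 9 rest on a single read.

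Tpi1 had 1 tag, in WT replicate 1, with a tail of 64 nt, equal to the median of that library. Eno1 had tags of 111 nt in WT replicate 2, 43 nt in WT replicate 3 and 100 nt in DKO replicate 2. Its tail in WT replicate 3 was close to that library's median of 45 nt, and the other 2 were longer than theirs. With so few tags neither gene allows a comparison of genotypes.

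Pkm had 5 tags. Its tail was 163 nt in WT replicate 1, 66 nt in DKO replicate 1 and 86 nt in DKO replicate 2, and it had no tag in WT replicate 2 or DKO replicate 3. In WT replicate 3 it had 2 tails, of 20 and 25 nt. The tag of 20 nt carried the only base other than A listed as added at the 3' end in the whole set, a U. The tails as read are shown here because they display that base beside other short tails of the set in the same library, 5' to 3', in lower case with the added base in capitals and with T standing for U as in the deposited tables.
Pkm, 20 nt: aaaaaaaaaaaaaaaaaaaaaT
Pkm, 25 nt: aaaaaaaaaaaaaaaaaaaaaaaaa
Ldha, 21 nt: aaaaaaaaaaaaaaaaaa

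The string read need not have the length that was called, since the Ldha tail called at 21 nt is listed as 18 bases. The U-bearing tag rests on 3 reads. One U among 6 tailed tags of WT replicate 3 is 16.7% (95% exact interval 0.421 to 64.1%), and 0 of 9, 9, 9, 13 and 2 tags in the other libraries carried one. Across all tailed, gene-linked tags the U share was 2.30% to 3.61% per library, and the interval for the set in WT replicate 3 takes in that whole range.

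Ldha, which encodes the enzyme of lactate production and lies on the same chromosome (chr7:46842274-46855627, RefSeq on GRCm38.p6), gave the most values. Its level was 1.18, 5.27 and 4.18 tags per 10,000 in WT and 0.967, 2.91 and 5.07 in DKO. The genotypes overlapped, at 3.54 ± 2.12 and 2.98 ± 2.05 (SD, n = 3 each), with an exact permutation p of 0.7 (two-sided). Its 2 tails in WT replicate 1 were 6 and 53 nt, the 6 in WT replicate 2 were 41, 54, 61, 62, 80 and 126 nt, and the 3 in WT replicate 3 were 21, 42 and 63 nt. In DKO replicate 1 the 2 tails were 37 and 61 nt, beside the only tag of the set with no tail. The 7 tails in DKO replicate 2 were 39, 58, 65, 72, 99, 115 and 133 nt, and the 2 in DKO replicate 3 were 71 and 107 nt. Of the 4 Ldha tails above 100 nt, 1 was in WT (replicate 2) and 3 were in DKO (replicates 2 and 3).

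WT replicates 1, 2 and 3 had mean Ldha tails of 29.5, 70.7 and 42.0 nt, and the DKO replicates had 49.0, 83.0 and 89.0 nt. WT replicate 2 lay above DKO replicate 1, so the genotypes overlapped. Within each number the DKO mean was the longer one, by 19.5, 12.3 and 47.0 nt. The labels do not pair libraries by number, and for numbers 1 and 2 correlations of tag counts did not favour same-numbered pairs. WT averaged 47.4 nt ± 21.1 and DKO 73.7 nt ± 21.6 (SD, n = 3 each), a difference of 26.3 nt (exact permutation test, two-sided p = 0.2, where the smallest possible is 0.1). The means rest on as few as 2 tags. In WT replicate 1 the tail of 6 nt was listed at 2 nt before mapping, below the 5 nt limit. With lengths before mapping the WT mean there was 53.0 nt, above the 49.0 nt of DKO replicate 1, and the order within number 1 turned. The difference in group means was then 18.2 nt. Over the 4 tests of a single value run for Ldha and Aldoa (mean tail and level of each), no p was below 0.2, and these p-values are unadjusted.

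In the main settings, the tests fitted across all gene IDs could not take in any of the 8 genes, whose tags were too few for the filters. For tail length, limma took in the 44 IDs that had 10 tailed tags or more in each of the 6 libraries, and called 0 at an adjusted p of 0.05 (0%, with 2 at an unadjusted p under 0.05). For tag count, edgeR's quasi-likelihood test was fitted over the 170 IDs that passed its filter, and called 0 (0%, with 13 unadjusted; DESeq2 called 0, with 8 unadjusted). When the replicate number entered as a block, 3 of these 170 IDs passed in edgeR, a fit that again held none of the set. Without the libraries numbered 3, edgeR called 30 of 241 IDs, and that fit held none of the set either. Looser filters let Ldha in. When 2 tailed tags per library were enough, 223 IDs could be tested for tail length, a limit chosen after seeing the data, and 0 were called (0%, with 3 at an unadjusted p under 0.05). Ldha had a log2 change in mean tail of 0.68 (SE 0.37) towards longer tails in DKO, with a limma adjusted p of 0.95. Its change was larger than that of 220 of the 223 IDs, whose median was 0.10. That rank carries counting error, since the Ldha means rest on 2 tailed tags in WT replicate 1, DKO replicate 1 and DKO replicate 3. With the replicate number as a block, which count correlations did not favour for numbers 1 and 2, its SE was 0.21. Its limma adjusted p was then 0.81 (unadjusted 0.016, against 0.11 without the block), and 11 IDs had an unadjusted p under 0.05. Ldha entered these fits only because its tail of 6 nt in WT replicate 1 counted as tailed. The mean there was 29.5 nt with this tail, against 53.0 nt with lengths before mapping, so the change of 0.68 also leans on it. That tail was listed at 2 nt before mapping, and the fits were not run with lengths before mapping. Over the 442 IDs with a tag in every library, edgeR gave Ldha a log2 change in tag count of -0.67 (SE 0.60, adjusted p = 0.78), and called 0 IDs (0%, with 34 unadjusted). The edgeR fit with no filter held 5 of the 8 genes and called 0 of 6469 IDs (154 unadjusted). In it Aldoa had a log2 change of 0.13 (SE 0.90, adjusted p = 0.93) and Ldha one of -0.38 (SE 0.85, adjusted p = 0.87). The median log2 change over all 6469 IDs in that fit was 0.54.

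Over all tailed tags of the set, the mean tail of WT replicates 1, 2 and 3 was 70.6, 71.4 and 35.7 nt, and that of the DKO replicates 67.6, 85.5 and 89.0 nt. The standard error over tags was 6.87 to 18.4 nt within a library, and the genotypes overlapped. WT averaged 59.2 nt ± 20.4 and DKO 80.7 nt ± 11.5 (SD, n = 3 each). Of the gap of 21.5 nt, most came with the libraries numbered 3. Without them the DKO average was 5.51 nt higher, with the DKO mean below that of WT at number 1 and above it at number 2. Within number 3, with 6 WT tags and 2 DKO tags, it was 53.3 nt higher. All tailed, gene-linked tags ran in the same directions, with means of 74.7 nt (WT) and 72.3 nt (DKO) at number 1, 70.3 and 78.9 nt at number 2, and 48.3 and 60.9 nt at number 3.

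Set against its own library, the set lay close to the middle. Of the 48 tails, 23 were shorter than the median of their library and 22 were longer, with 3 equal to it. In WT 14 were shorter and 8 longer, and in DKO 9 were shorter and 14 longer. By library, the mean of the set differed from that of all tags by -4.15, 1.14 and -12.7 nt in WT and by -4.70, 6.53 and 28.1 nt in DKO. Each of these was within 2 standard errors over tags of 0, and the last rests on 2 tags.

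**Figure D3:**
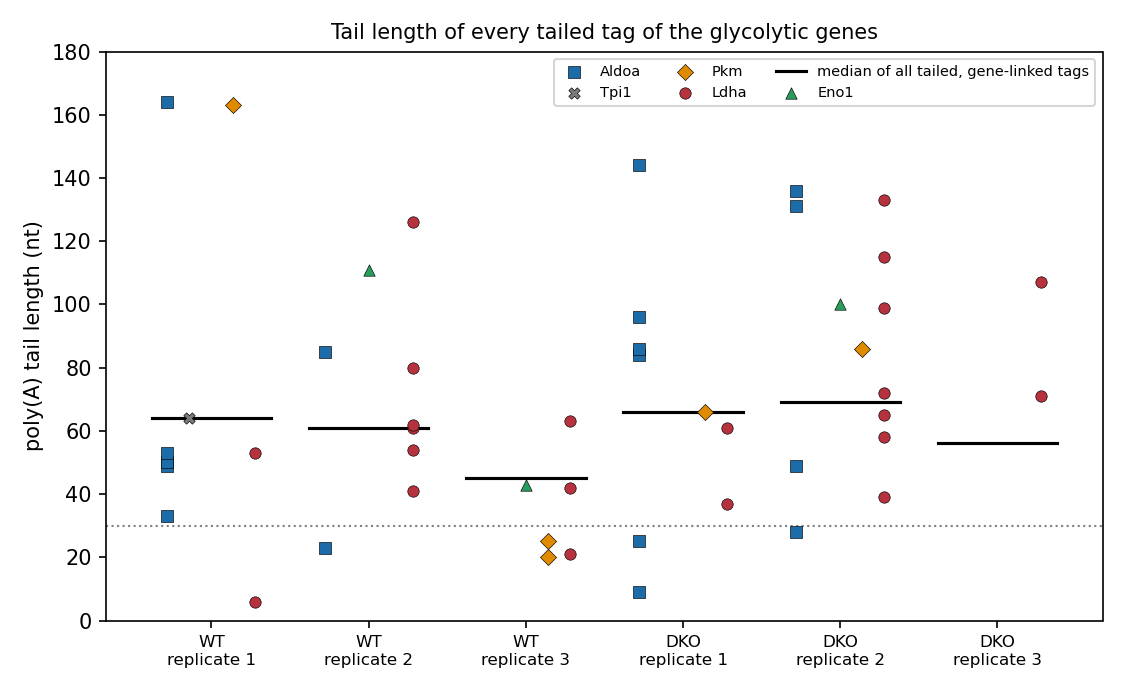
Tail length in nt (vertical axis) of all 48 tailed tags of the set by library (horizontal axis), with 1 symbol per tag, coloured by gene, a black bar at the median of all tailed, gene-linked tags of that library and a dotted line at 30 nt. The tails spread from 6 to 164 nt on both sides of the bars, 5 of the 6 tags of WT replicate 3 lie below its bar, and both tags of DKO replicate 3 lie above theirs.

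Tails under 30 nt, which leave room for about one poly(A)-binding protein, numbered 1 of 9, 1 of 9 and 3 of 6 in WT and 2 of 9, 1 of 13 and 0 of 2 in DKO. They were 4 of Aldoa, 2 of Pkm and 2 of Ldha. In shares this was 11.1%, 11.1% and 50.0% in WT and 22.2%, 7.69% and 0% in DKO, with 95% exact intervals as wide as 11.8 to 88.2% in WT replicate 3. Over all tailed, gene-linked tags the share was 9.77%, 10.9% and 25.3% in WT and 8.71%, 7.80% and 15.4% in DKO, so WT replicate 3 was also the highest there. The order of the genotypes turned without the libraries numbered 3: the mean DKO share less the mean WT share was 3.85 percentage points instead of -14.1. Over all tags the same difference without them was -2.07 points. The set's difference over all 6 libraries also moved with the limit: it was 0 points under 20 nt (3.70% in each genotype) and -11.5 points under 40 nt. Tails of 100 nt or more numbered 4 in WT and 7 in DKO. A single tag, of Ldha in DKO replicate 1, had no tail of 5 nt or more, while 5.99% to 28.0% of linked tags of each library had none. The upper ends of the set's 95% exact intervals ran from 24.7% (DKO replicate 2) to 84.2% (DKO replicate 3). Each interval took in the share of its own library.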

How the data were processed

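Per the file headers and the deposited tables, the authors gave for each library the mapped tags with their tail length in nt and read count, the gene IDs linked to each tag, and tag counts per gene ID. The submitters' processing notes name GSNAP, bedtools, mm10 and GRCm38. The sources used here give neither the tail caller nor the annotation release. Tags were joined to gene IDs by their key, and the 8 gene names come with the selection rule, since 0 of 49997 RefSeq rows (GRCm38.p6) hold an Ensembl ID. The deposited counts were recomputed for all 18 pairs of gene and library with a tag, with 0 differences. Lengths after mapping were used, and tags of at least 5 nt counted as tailed. A level is tailed tags of a gene over all tailed, gene-linked tags of the library. Intervals cover counting error only, since PCR copies need not be independent molecules, and 24 of the 49 tags rest on 1 read.

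Log2 mean tail length was tested with limma 3.58.1 and tag counts with edgeR 4.0.16 (TMM, filterByExpr, quasi-likelihood), with Benjamini-Hochberg adjustment over all IDs tested, in R 4.3.3, and DESeq2 1.42.0 as an alternative. Both limma and edgeR were also run on simulated data that held no library effect. The changed IDs were drawn from those passing the main filters, so this does not bear on power for the 8 genes. Single values were compared with SciPy 1.17.1 (exact permutation). All 8 genes are named, in the order of the pathway. The members and lists were chosen with earlier results of these data known. The lists of other genes could not be matched to IDs and were left out. No 2 libraries agreed within sampling noise (chi-square over 76 IDs). Same-numbered libraries deviated together from their group means over 170 IDs (r = 0.14, 0.21 and 0.38 for numbers 1, 2 and 3), although WT replicate 1 and DKO replicate 2 gave 0.29 and WT replicate 2 and DKO replicate 1 gave 0.38. The number was also tried as a block, although for numbers 1 and 2 these correlations did not favour same-numbered pairs.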

Additional observations from a re-analysis of the deposited data

How the results depend on the processing

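The set's level, mean tail, share with no tail and share with a U moved by less than 1 SD between libraries in every alternative run, with no test on them. This is a loose limit: that SD was 4.08 points for tags with no tail and 6.80 for tags with a U. The differences themselves were 3.33 and -5.56 points, and each fell to 0 in some runs. The mean tail difference fell from 21.5 to 5.51 nt with numbers 1 and 2 only. The tail values could not change on leaving out Gapdh, which had no tag, or on keeping tags with 1 gene ID. Leaving out 1 library at a time gave differences (DKO minus WT) of -0.0319 to -0.0166 percentage points in level, 9.67 to 28.0 nt in mean tail (9.67 without WT replicate 3), -20.6 to -1.14 points in tails under 30 nt (-1.14 without WT replicate 3), 0 to 5 points in tags with no tail and -8.33 to 0 points in tags with a U. The mean Ldha tail difference was 17.3 to 38.6 nt. It was 15.9 nt with numbers 1 and 2 only, where the set's differences were -0.0172 points in level and 0 in tags with a U. With numbers 1 and 2 only, the difference in tails under 30 nt was 3.85 points; the libraries left out had 3 of 6 (WT) and 0 of 2 (DKO) such tags. Of all IDs, edgeR called 0 to 8 after leaving out single libraries (8 in the fit without WT replicate 3), 3 with the replicate block, 3 when the library group was blocked, 3 over IDs with a tag in every library with the replicate block (added after seeing the data), and 30 with numbers 1 and 2 only; the cause was not tested. Of these fits with calls, the one over IDs with a tag in every library held a glycolytic gene, Ldha, which was not called (edgeR adjusted p = 0.74), and the others held none. The replicate block changed no call in limma. For tail length 0 IDs were called in every fit run (smallest limma adjusted p 0.15 to 0.98). Lengths before mapping, and tags of at least 2 reads (mean Ldha difference 25.4 nt), were added after seeing the data. Counting all tags within a gene's span was not run, since the mapped tags carry no positions. At this depth 3 genes had no tag and none had 10 in every library.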

Other observations

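The tag count of the set over the 6 libraries was most like that of 5 of the 170 gene IDs tested in edgeR, with Pearson r of 0.82 to 0.95 between scaled log2 tag counts. With 2 to 13 tags per library in the set, and depth and library group shared by all IDs, this is a description with no test.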
